A study of Homo sapiens with 4 samples.

Results

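Transcripts of 39 autophagy and lysosome genes were examined in 2 human cell lines after 2 h in a magnetic field. The genes were chosen by symbol, all 39 were among the 26348 genes listed, and all 39 passed the filter on low values, which kept a gene that reached 0.5 FPKM in 3 or more of the 12 libraries. FPKM is the number of fragments scaled by transcript length and library total, so levels can be set side by side between genes. The lines were 293T, a kidney epithelial line that carries the large T antigen of SV40, and A549, which derives from a lung adenocarcinoma, a non-small cell cancer. Each was grown without a field (control) or exposed to a field for 2 h, with no genetic change named for any group, and each of the 4 groups was represented by 3 libraries. The sources used here do not give the field's strength, and the labels give neither its frequency nor the culture temperature. Each tissue is represented by 1 line. Whether the 3 libraries of a group are separate cultures is not stated. The p-values therefore speak only of the spread among libraries, and that spread may be technical.

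Macroautophagy encloses cytoplasm in a double membrane, the autophagosome, and delivers it to the lysosome. The ULK1 complex starts the process, a phosphatidylinositol 3-kinase (PI3-kinase) complex marks the site with the lipid PI3P, ATG9A and ATG2A supply membrane, and a ubiquitin-like conjugation machinery acts on the growing membrane. Cargo receptors such as SQSTM1 (p62) bind ubiquitinated cargo and bring it to the membrane. The transcription factors TFEB and TFE3 drive many lysosomal genes through a promoter element called CLEAR. Much of autophagy is controlled by phosphorylation and protein turnover, which RNA levels do not show.

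The libraries held 37173110 to 38884704 counts. Of 6 genes fixed as A549 markers, all were higher in A549 (AKR1B10 645 to 782 FPKM against 0.713 to 1.57 in 293T), and 4 of 5 genes fixed as 293T markers were higher in 293T, while ENO2 was higher in A549 (22.4 to 28.7 against 6.01 to 7.51 FPKM). The alveolar type II markers SFTPC and NKX2-1 reached at most 0.0275 and 0.0111 FPKM in A549, while NKX2-1 was at 0.725 to 1.00 FPKM in 293T. The other 2 of the 4 markers fixed for that cell type, SFTPA1 and SFTPB, were not among the genes listed. On the first principal component, the third exposed library of each line was the closest to its controls (9.91 against 15.7 and 18.2 in A549, 6.51 against 16.1 and 14.7 in 293T).

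In exposed A549, 5 of the 39 genes were higher and 10 lower than in controls, and 24 did not pass the test (limma on log2(FPKM + 1), Benjamini-Hochberg adjusted p under 0.05 over 13811 genes). In bulk RNA, fewer cells holding a transcript and less of it per cell cannot be told apart. In exposed 293T, 9 were higher, 10 lower and 20 not past the threshold. Over all genes tested, 13.3% were higher and 26.9% lower in A549, and 13.7% higher and 24.2% lower in 293T. The members' shares were 12.8% and 25.6% in A549, and 23.1% and 25.6% in 293T, so all but the share of higher genes in 293T lay near the background. The median log2 change of the members was 0.01 in A549 and -0.03 in 293T, beside -0.04 and -0.03 over all genes. Changes were small on the log2(FPKM + 1) scale: the largest was -0.57 in A549 and -0.43 in 293T, both of ATG2A. In each line 2 members lay beyond the 95th percentile of the size of change of all genes (0.47 and 0.42). As a ratio of mean FPKM, TFEB fell more than ATG2A in A549 (1.82-fold against 1.64-fold). The split in A549 moved with the scaling: it was 9 higher and 4 lower with median centring of the libraries, 7 and 6 after quantile normalization, 3 and 12 after rescaling without mitochondrially encoded genes, and 12 and 4 with limma-voom on recovered counts. In 293T the same settings gave 9 and 5, 9 and 6, 7 and 10, and 10 and 6.

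Of the 39 genes, 5 were higher in both lines (ATG101, ATG5, ATG16L1, MAP1LC3B and GABARAP), beside 6.32% of all genes, and 7 were lower in both (ULK1, ULK2, ATG13, ATG9A, ATG2A, TFEB and MCOLN1), beside 14.2%. No member was called in opposite directions, as 1.11% of all genes were. The genes past the threshold in A549 only were UVRAG, WIPI1 and NBR1. Those past it in 293T only were ATG10, ATG12, GABARAPL2, SQSTM1, TAX1BP1, CTSD and CTSL. The exposed and control libraries did not overlap for 19 members in A549 (7 higher and 12 lower, 48.7%, beside 49.7% of all genes) and for 21 in 293T (10 higher and 11 lower, 53.8%, beside 50.0%). A test of the difference between the lines called 2 members, SQSTM1 and ATG101, both with the smaller response in A549, beside 7.03% of all genes, and none with the larger one, beside 5.51%. Apart from these members, a gene called in a single line is not shown to respond differently there.

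**Figure D1:**
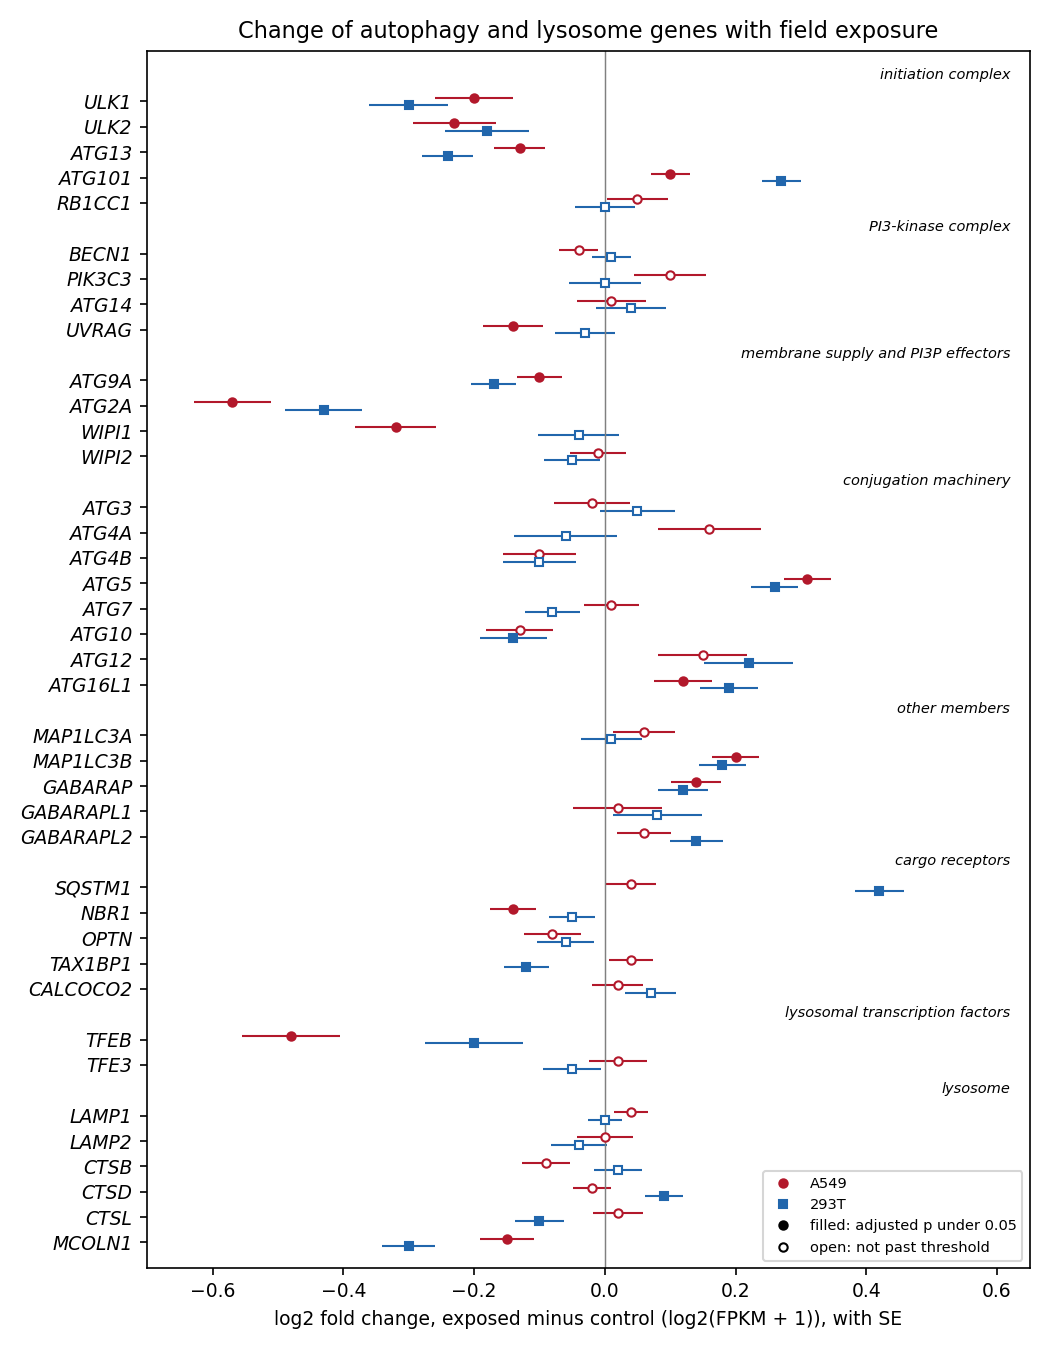
Log2 fold change of the 39 genes (exposed minus control, log2(FPKM + 1) scale; bars are the SE of the limma fit with 3 libraries a group) by role, in A549 (red circles) and 293T (blue squares); filled symbols passed the test. ATG2A is lowest in both lines, and SQSTM1 is at 0.42 in 293T and 0.04 in A549.

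Promoters with the 8-base string TCACGTGA, searched for as the CLEAR element, are shown because TFEB, itself a member, acts through that element. RefSeq promoter windows of GRCh38.p14 (250 bases before to 50 after the start) matched 34 of the 39 members and 11182 of the genes tested. RB1CC1, UVRAG, MAP1LC3A, LAMP2 and CTSB had no window and were not searched. Only exact matches were counted, so other forms of the element would be missed. The 8-base palindrome TCACGTGA, which reads the same on both strands, lay in the windows of 3 members, ATG3, LAMP1 and MCOLN1, and in 1.90% of the windows of all tested genes. The sequences run from 200 bases before to 30 after the start, 5′ to 3′ on the gene's strand, with each TCACGTGA in capitals.
ATG3, chr3:112561933-112562162, minus strand: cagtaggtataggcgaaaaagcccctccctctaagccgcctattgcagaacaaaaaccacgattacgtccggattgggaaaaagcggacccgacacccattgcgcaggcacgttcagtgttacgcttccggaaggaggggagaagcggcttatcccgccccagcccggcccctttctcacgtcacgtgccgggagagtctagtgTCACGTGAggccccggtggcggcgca
LAMP1, chr13:113297039-113297268, plus strand: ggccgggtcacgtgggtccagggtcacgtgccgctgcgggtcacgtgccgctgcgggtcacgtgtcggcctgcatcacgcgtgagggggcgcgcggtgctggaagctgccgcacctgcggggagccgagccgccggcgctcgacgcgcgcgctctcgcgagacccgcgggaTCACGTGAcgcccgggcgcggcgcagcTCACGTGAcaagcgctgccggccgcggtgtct
MCOLN1, chr19:7522424-7522653, plus strand: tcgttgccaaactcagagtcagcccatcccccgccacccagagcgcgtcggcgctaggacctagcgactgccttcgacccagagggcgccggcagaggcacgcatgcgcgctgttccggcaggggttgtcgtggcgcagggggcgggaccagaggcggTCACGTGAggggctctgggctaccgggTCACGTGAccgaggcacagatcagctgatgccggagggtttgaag
LAMP1 and MCOLN1 have 2 matches each, all before the start or across it, and the match of ATG3 begins at base 5 of the transcript. The shorter E-box CACGTG, contained in each of these matches, was found in 5 members (also ATG14 and CTSD) and in 10.2% of all windows. Of the 3 genes with TCACGTGA, MCOLN1 was lower in both exposed lines, whereas LAMP1 and ATG3 passed the test in neither. Other motifs were searched on both strands. The antioxidant core TGACNNNGC was in 6 members (15.2% of all windows), the heat shock pairs GAANNTTC in 2 (4.61%) and TTCNNGAA in 1 (5.97%), the palindrome TGACGTCA in 1 (3.35%), and the stress element TGATGNAA in 0 (1.65%). A match is a run of letters, not a measured site.

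Of the 5 members of the initiation complex, the kinases ULK1 and ULK2 and the scaffold ATG13 were lower in both exposed lines, ATG101, which stabilises ATG13, was higher in both, and the scaffold RB1CC1 (FIP200) passed in neither. ULK1 was at 11.3, 10.0 and 10.2 FPKM in the 293T controls and 8.88, 7.66 and 8.63 FPKM after exposure. A549 controls had 9.60, 8.63 and 9.09 FPKM of ULK1, and exposed A549 had 8.01, 8.00 and 7.45 FPKM. In both lines every exposed library lay below every control. The log2 change was -0.30 in 293T (SE 0.060, adjusted p = 0.00249) and -0.20 in A549 (SE 0.060, adjusted p = 0.0208). ULK2 was at 3.46, 3.39 and 3.23 FPKM in A549 controls and 2.47, 2.92 and 2.79 FPKM after exposure, again with no overlap (log2 change -0.23, adjusted p = 0.0135). In 293T it was at 1.25, 1.33 and 1.25 FPKM in controls and 0.893, 0.923 and 1.21 FPKM after exposure (log2 change -0.18, adjusted p = 0.0384). There the third exposed library lay just under the controls. As ratios of mean FPKM, ULK2 was 1.27-fold lower in 293T and 1.23-fold lower in A549. ATG13 fell by 0.24 on the log2 scale in 293T (13.9 ± 0.299 to 11.6 ± 0.589 FPKM, SD, n = 3, adjusted p = 6.06e-04) and by 0.13 in A549 (12.8 ± 0.0560 to 11.5 ± 0.299 FPKM, adjusted p = 0.0164). In A549, ULK1 lost its call in 7, ATG13 in 4 and ULK2 in 2 of 23 alternatives, with adjusted p up to 0.0778, 0.146 and 0.0842, while in 293T ULK2 lost it in 9 (up to 0.152) and ULK1 and ATG13 in 0. Single libraries that ended a call in A549 were exposed replicate 3 and control replicates 1 and 3 for ULK1, exposed replicate 1 for ULK2 and exposed replicate 2 for ATG13, and in 293T exposed replicates 1 and 2 and each control for ULK2.

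ATG101 was the 1 member of the complex that was higher. It was at 15.6, 16.4 and 16.0 FPKM in 293T controls and 19.8, 19.2 and 19.6 FPKM after exposure, 1.22-fold higher (log2 change 0.27, SE 0.030, adjusted p = 7.74e-05). In A549 it was at 31.6, 31.1 and 32.5 FPKM in controls and 34.3, 34.4 and 33.9 FPKM after exposure, 1.08-fold higher (log2 change 0.10, SE 0.030, adjusted p = 0.0173). All exposed libraries lay above all controls in both lines. The response in A549 was smaller by 0.17 on the log2 scale (log2 difference -0.17, SE 0.043, adjusted p = 0.0234). That difference missed the threshold with median centring, with limma-voom, and without replicate 1 of the 293T controls or replicate 3 of the A549 controls (adjusted p up to 0.152 over 22 alternatives). The call in A549 was lost in 3 of 23 alternatives, rescaling without mitochondrially encoded genes and leaving out replicate 2 of either A549 group (adjusted p up to 0.114).

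Among the 4 members of the PI3-kinase complex, the lipid kinase PIK3C3 and its partners BECN1 and ATG14 passed the test in neither line. UVRAG, the subunit of the endosomal form of the complex, was at 2.81, 2.98 and 3.04 FPKM in A549 controls and 2.47, 2.51 and 2.75 FPKM after exposure. The groups did not overlap (log2 change -0.14, SE 0.046, adjusted p = 0.0270). In 293T, UVRAG was at 3.76, 3.99 and 3.72 FPKM in controls and 3.68, 3.66 and 3.80 FPKM after exposure, which overlapped (log2 change -0.03, adjusted p = 0.596). The call in A549 was lost in 8 of 23 alternatives (adjusted p up to 0.419), 4 of them fits without exposed replicate 1 or 2 or control replicate 2 or 3 (up to 0.0946). BECN1 was at 41.2, 40.7 and 41.9 FPKM in A549 controls and 38.7, 40.4 and 41.0 FPKM after exposure, and at 32.8, 32.3 and 32.9 FPKM and then 33.0, 32.5 and 33.7 FPKM in 293T. Its groups overlapped in both lines.

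On the log2(FPKM + 1) scale, the largest change in each line was that of ATG2A, a gene for membrane supply. ATG2A encodes a lipid transfer protein that feeds lipid from the endoplasmic reticulum into the growing membrane. It was at 4.94, 5.01 and 5.05 FPKM in A549 controls and 3.06, 2.86 and 3.24 FPKM after exposure. In 293T it was at 7.39, 6.82 and 6.98 FPKM in controls and 4.68, 4.75 and 5.61 FPKM after exposure. No exposed library reached a control in either line, and the third exposed library of each line was the highest of its group. ATG2A was 1.64-fold lower in exposed A549 (log2 change -0.57, SE 0.059, adjusted p = 2.62e-05) and 1.41-fold lower in exposed 293T (log2 change -0.43, SE 0.059, adjusted p = 2.80e-04). The gene lies at chr11:64894546-64917209 (RefSeq, GRCh38.p14, as for the other spans given). Both calls held in all 23 alternatives, and the responses of the lines differed by -0.14 (SE 0.084, adjusted p = 0.310).

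ATG9A, the scramblase of the vesicles that seed the membrane, was at 28.2, 27.3 and 26.4 FPKM in 293T controls and 24.7, 23.9 and 23.8 FPKM after exposure. Its levels in A549 were 16.6, 16.9 and 17.2 FPKM in controls and 15.4, 15.4 and 16.2 FPKM after exposure. The groups did not overlap in either line. The log2 change was -0.17 in 293T (adjusted p = 0.00249) and -0.10 in A549 (adjusted p = 0.0312), and the call in A549 was lost in 7 of 23 alternatives (adjusted p up to 0.489), among them without exposed replicate 1 or 2 or control replicate 2 or 3 (up to 0.104). WIPI1 and WIPI2 bind PI3P on the forming membrane. WIPI1 was at 2.29, 2.23 and 2.31 FPKM in A549 controls and 1.82, 1.41 and 1.66 FPKM after exposure, without overlap and 1.39-fold lower (log2 change -0.32, SE 0.062, adjusted p = 0.00146). In 293T, WIPI1 was at 1.07, 1.12 and 0.876 FPKM in controls and 0.964, 0.942 and 0.995 FPKM after exposure, which overlapped. The difference between the lines was -0.28 (SE 0.087, adjusted p = 0.0542), not past the threshold, and 3 of 22 alternatives put it under the threshold. WIPI1 overlaps PRKAR1A (up to 60.4 FPKM) and ARSG, so reads may be shared. WIPI2, the paralog that recruits ATG16L1, passed the test in neither line.

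Of the 8 members of the conjugation machinery, 2 were higher and 0 lower in A549, and 3 were higher and 1 lower in 293T. ATG5, which is joined to ATG12 and with ATG16L1 forms a ligase of the conjugation machinery, was at 9.73, 9.32 and 9.14 FPKM in A549 controls and 11.7, 12.4 and 11.6 FPKM after exposure. In 293T it was at 12.6, 12.5 and 12.6 FPKM in controls and 15.1, 15.4 and 15.1 FPKM after exposure. Each exposed library was above each control of its line. ATG5, at chr6:106184476-106325760, was 1.27-fold higher in A549 (log2 change 0.31, SE 0.036, adjusted p = 5.29e-05) and 1.21-fold higher in 293T (log2 change 0.26, SE 0.036, adjusted p = 2.93e-04), in all 23 alternatives.

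ATG16L1 was higher in both lines as well, from 10.5 ± 0.449 to 12.1 ± 0.350 FPKM in 293T (log2 change 0.19, adjusted p = 0.00525) and from 16.1 ± 0.181 to 17.6 ± 0.989 FPKM in A549 (log2 change 0.12, adjusted p = 0.0440). The A549 call was lost in 11 of 23 alternatives, 7 of which left out 1 library, namely exposed replicate 1 or 2 or any control of A549 or replicate 1 or 2 of the 293T controls (adjusted p up to 0.174). ATG12 was higher in 293T, from 10.6 ± 0.535 to 12.5 ± 0.892 FPKM (log2 change 0.22, adjusted p = 0.0223), and had a log2 change of 0.15 in A549 (adjusted p = 0.0998). The 293T call of ATG12 was lost in 5 of 23 alternatives, without the filter and without replicate 1 or 2 of either 293T group (adjusted p up to 0.0926). ATG10, which acts as the E2 enzyme for ATG12, was lower in 293T (0.861 ± 0.0270 to 0.689 ± 0.0982 FPKM, log2 change -0.14, adjusted p = 0.0451), a call lost in 15 of 23 alternatives (adjusted p up to 0.286). The E1 enzyme ATG7, the E2 enzyme ATG3 and the proteases ATG4A and ATG4B passed the test in neither line. ATG4A was at 3.97, 5.18 and 4.43 FPKM in A549 controls and 4.91, 5.41 and 5.10 FPKM after exposure, and at 10.9, 11.9 and 11.7 FPKM and then 9.85, 11.8 and 11.4 FPKM in 293T, overlapping in both lines. The ATG3, ATG4A and ATG7 genes overlap SLC35A5, PSMD10 and VGLL4, which may have exchanged reads with them.

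MAP1LC3B, the most used marker of autophagosomes, was at 46.2, 47.4 and 47.1 FPKM in A549 controls and 55.6, 55.3 and 51.5 FPKM after exposure. In 293T it was at 50.1, 49.7 and 49.9 FPKM in controls and 54.4, 58.2 and 57.9 FPKM after exposure. The groups were separate in both lines, and the changes were 1.15-fold in A549 (log2 change 0.20, SE 0.036, adjusted p = 8.05e-04) and 1.14-fold in 293T (log2 change 0.18, SE 0.036, adjusted p = 0.00191), kept in all 23 alternatives. The near-identical MAP1LC3B2, with which reads may be split, was at 2.97 ± 0.508 and 3.65 ± 0.286 FPKM in control and exposed A549 and 4.79 ± 0.830 and 5.68 ± 0.248 FPKM in 293T, and did not pass the test (adjusted p = 0.0925 and 0.128).

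GABARAP was 1.11-fold higher in A549 (105 ± 3.15 to 116 ± 2.68 FPKM, adjusted p = 0.010) and 1.09-fold higher in 293T (76.3 ± 3.27 to 83.1 ± 2.97 FPKM, adjusted p = 0.0259). The 293T call was lost in 6 of 23 alternatives, among them without exposed replicate 1 or 2 or control replicate 2 (adjusted p up to 0.116), and the A549 call in 1, quantile normalization (adjusted p = 0.0507). GABARAP overlaps PHF23 (up to 27.1 FPKM), so reads may be shared. GABARAPL2 was at 71.8, 75.0 and 74.5 FPKM in 293T controls and 81.0, 81.8 and 81.1 FPKM after exposure, without overlap (log2 change 0.14, adjusted p = 0.0202). In A549 it was at 46.9, 44.3 and 48.1 FPKM and then 51.6, 47.8 and 46.2 FPKM, which overlapped (log2 change 0.06, adjusted p = 0.257). The GABARAPL2 call in 293T was lost without replicate 2 of the exposed or replicate 1 of the control libraries (adjusted p up to 0.0789). GABARAPL1 passed the test in neither line. MAP1LC3A was at 2.86, 2.73 and 2.51 FPKM in A549 controls and 2.70, 2.92 and 2.90 FPKM after exposure. It was at 0 in 4 of the 6 293T libraries, so a change in 293T could not be assessed.

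**Figure D2:**
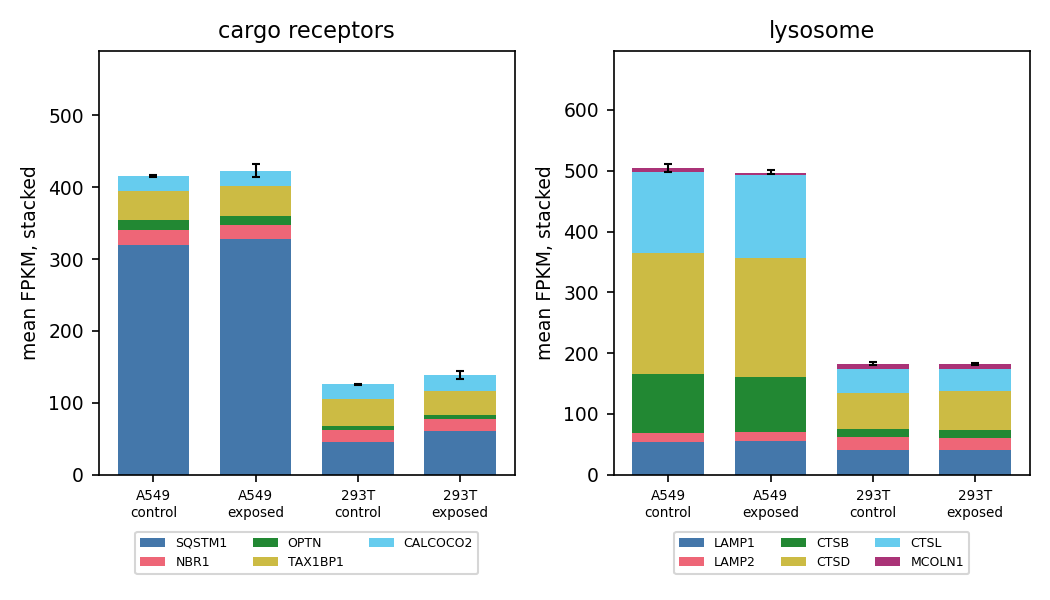
Mean FPKM of the cargo receptors and the lysosomal genes, stacked by gene for the 4 groups; the error bar is the SD of the sum over 3 libraries. SQSTM1 makes up most of the receptor sum in A549 (76.8% in controls) and less of it in 293T (36.1%).

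The cargo receptor SQSTM1 gave the clearest difference in response between the lines, and the other 4 receptors did not pass that test. SQSTM1 was at 45.9, 45.8 and 44.7 FPKM in 293T controls and 62.9, 63.8 and 57.1 FPKM after exposure. In A549 it was at 318, 319 and 319.5 FPKM in controls and 333, 333 and 317 FPKM after exposure. In 293T every exposed library was far above the controls, while in A549 the third exposed library lay below all 3 controls. SQSTM1 was 1.35-fold higher in exposed 293T (log2 change 0.42, SE 0.038, adjusted p = 2.99e-05) and 1.03-fold higher in A549 (log2 change 0.04, SE 0.038, adjusted p = 0.454). The response in A549 was smaller by 0.38 on the log2 scale (log2 difference -0.38, SE 0.054, adjusted p = 0.00116), a call kept in all 22 alternatives (adjusted p up to 0.00497). The value in A549 ran from -0.08 to 0.11 over 23 alternatives and passed the threshold in 1 of them, limma-voom (adjusted p = 0.0196). SQSTM1 was already 7.01-fold higher in A549 controls than in 293T controls, so exposed 293T (61.3 ± 3.65 FPKM) stayed far below either A549 group. Its gene, at chr5:179806393-179838078, overlaps MGAT4B (up to 42.8 FPKM) and MRNIP (up to 16.1 FPKM), whose part in these counts was not tested.

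SQSTM1 made up 36.1% of the FPKM of the 5 receptors in 293T controls and 44.1% in exposed 293T, and 76.8% and 77.6% in A549. NBR1, a receptor with the same domain plan as SQSTM1, was at 21.6, 20.9 and 20.4 FPKM in A549 controls and 19.0, 19.2 and 18.9 FPKM after exposure. In 293T it was at 18.0, 17.2 and 17.3 FPKM and then 16.8, 17.4 and 16.4 FPKM. NBR1 libraries were separate in A549 (log2 change -0.14, SE 0.035, adjusted p = 0.00803, lost with median centring and limma-voom, adjusted p up to 0.129) and overlapped in 293T. TAX1BP1 was lower in 293T, from 37.3 ± 1.33 to 34.2 ± 1.10 FPKM (log2 change -0.12, adjusted p = 0.0134), a call lost in 3 of 23 alternatives, among them without replicate 3 of the controls (adjusted p = 0.0582). It was at 41.0 ± 0.566 and 42.0 ± 0.691 FPKM in A549, and the test of the difference between the lines gave 0.16 (SE 0.048, adjusted p = 0.0503). OPTN and CALCOCO2 (NDP52), receptors known from the removal of mitochondria and bacteria, passed the test in neither line.

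TFEB, a master regulator of lysosomal genes, was at 1.88, 1.53 and 1.65 FPKM in A549 controls and 1.05, 0.900 and 0.817 FPKM after exposure. In 293T it was at 1.12, 0.837 and 0.939 FPKM in controls and 0.834, 0.569 and 0.714 FPKM after exposure. Exposed and control libraries did not overlap in either line, but in 293T the highest exposed library nearly met the lowest control. TFEB, at chr6:41683978-41736223, was 1.82-fold lower in A549 (log2 change -0.48, SE 0.075, adjusted p = 3.74e-04), in all 23 alternatives, and 1.37-fold lower in 293T (log2 change -0.20, SE 0.075, adjusted p = 0.0494), where 14 of 23 alternatives lost the call (adjusted p up to 0.193), 8 of them without 1 library of either line. The difference between the lines did not pass (-0.28, SE 0.107, adjusted p = 0.113), and at these low levels the pseudocount understates both changes. TFE3 was at 28.9, 30.1 and 29.7 FPKM in A549 controls and 30.2, 30.2 and 29.8 FPKM after exposure, and in 293T at 15.9, 15.1 and 14.0 FPKM and then 13.9, 15.1 and 14.3 FPKM. It overlapped between the groups in both lines and exceeded TFEB in FPKM in all libraries.

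Of the 6 lysosomal members, MCOLN1, the calcium channel of the lysosomal membrane, was lower in both lines. It was at 9.49, 8.94 and 9.74 FPKM in 293T controls and 7.54, 7.27 and 7.41 FPKM after exposure. A549 controls had 5.57, 5.41 and 5.24 FPKM, and exposed A549 had 4.86, 4.66 and 4.76 FPKM. All exposed libraries lay below all controls. MCOLN1, at chr19:7522624-7534009, was 1.27-fold lower in 293T (log2 change -0.30, SE 0.041, adjusted p = 2.16e-04, kept in all 23 alternatives) and 1.14-fold lower in A549 (log2 change -0.15, SE 0.041, adjusted p = 0.0101). The A549 call was lost with quantile normalization, median centring and limma-voom (adjusted p up to 0.258).

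The membrane glycoproteins LAMP1 and LAMP2 and the protease CTSB passed the test in neither line. CTSB was at 93.3, 97.4 and 98.4 FPKM in A549 controls and 90.0, 89.9 and 90.8 FPKM after exposure, without overlap but with an adjusted p = 0.0654. Its 293T libraries, at 14.0, 12.9 and 12.9 FPKM in controls and 13.0, 13.8 and 13.7 FPKM after exposure, overlapped. CTSD, an aspartic protease, was at 61.3, 61.4 and 58.0 FPKM in 293T controls and 65.6, 63.6 and 63.3 FPKM after exposure, 1.07-fold higher (log2 change 0.09, adjusted p = 0.0260). Its A549 levels were 199, 197 and 202 FPKM and then 198, 197 and 194 FPKM, which overlapped. CTSL, a cysteine protease, was lower in 293T (38.4 ± 0.968 to 35.7 ± 0.346 FPKM, log2 change -0.10, adjusted p = 0.0447). The 293T call of CTSD was lost in 5 of 23 alternatives, among them without exposed replicate 1 or control replicate 3 (adjusted p up to 0.111), and that of CTSL in 15 (up to 0.361), 8 of them without 1 library. The 6 genes summed to 504 ± 6.87 and 498 ± 2.92 FPKM in control and exposed A549 and to 183 ± 2.94 and 182 ± 1.49 FPKM in 293T.

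**Figure D3:**
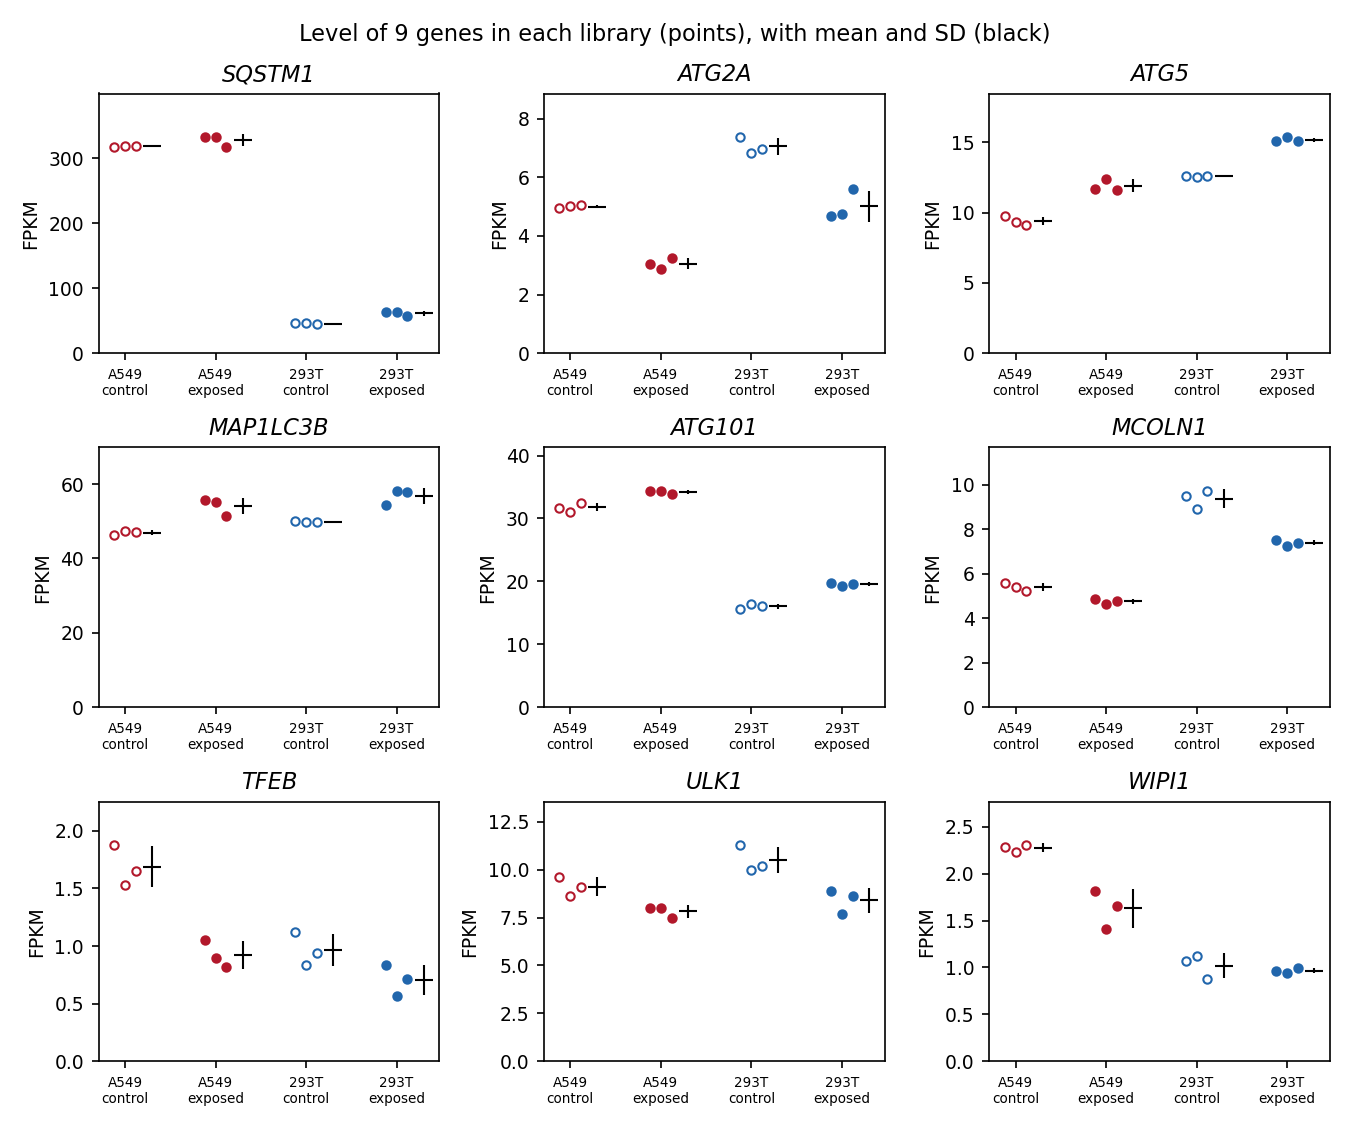
FPKM of 9 genes in each library, with open points for controls and filled points for exposed libraries (A549 red, 293T blue) and the mean and SD of 3 libraries in black; each axis starts at 0. SQSTM1 goes from 45.5 to 61.3 in 293T and from 319 to 328 in A549, ATG2A falls and ATG5 rises in both lines.

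The genes that were higher in both lines had shorter transcripts than those that were lower in both. The lengths implied by the FPKM were 1319 to 3380 bases (median 2147) for the 5 higher genes and 2084 to 9304 bases (median 5391) for the 7 lower ones, beside a median of 3950.0 bases over all genes tested. Across the 39 members, Spearman's rho of length and log2 change was -0.44 in A549 and -0.41 in 293T, and across all genes tested it was -0.00 and 0.10. These are descriptions over genes measured in the same libraries, and the part of transcript length in the members' changes was not tested.

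Between the unexposed lines some members differed by far more than with exposure. Others did not: ATG13, ULK1 and MAP1LC3B differed less between the controls than they changed in exposed 293T. In A549 controls 19 members were higher than in 293T controls, beside 32.4% of all genes tested, and 16 were lower, beside 55.9%, while ATG14, ATG7, GABARAPL1 and CALCOCO2 did not pass the test. CTSB had the smallest adjusted p, at 96.4 ± 2.72 FPKM in A549 and 13.3 ± 0.649 FPKM in 293T controls, 7.26-fold higher in A549 (log2 difference 2.77, adjusted p = 9.08e-16). After SQSTM1, at 7.01-fold, came CTSL at 3.47-fold, CTSD at 3.31-fold, OPTN at 2.99-fold and ULK2 at 2.63-fold. MAP1LC3A passed the filter only through its A549 libraries, so its place among the 19 higher members adds no support. It was detected with at most 2 counts in a 293T library. In A549 controls it was at least 45.0-fold higher than a floor of 3 counts per 293T library. In the other direction ATG4A was 2.54-fold, MCOLN1 1.74-fold, WIPI2 1.70-fold and ATG9A 1.61-fold higher in 293T. Of the 5 receptors, 4 were higher in A549 and none lower. The most abundant members were SQSTM1, CTSD, CTSL and GABARAP in A549, and GABARAP, GABARAPL2, CTSD and MAP1LC3B in 293T controls.

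**Figure D4:**
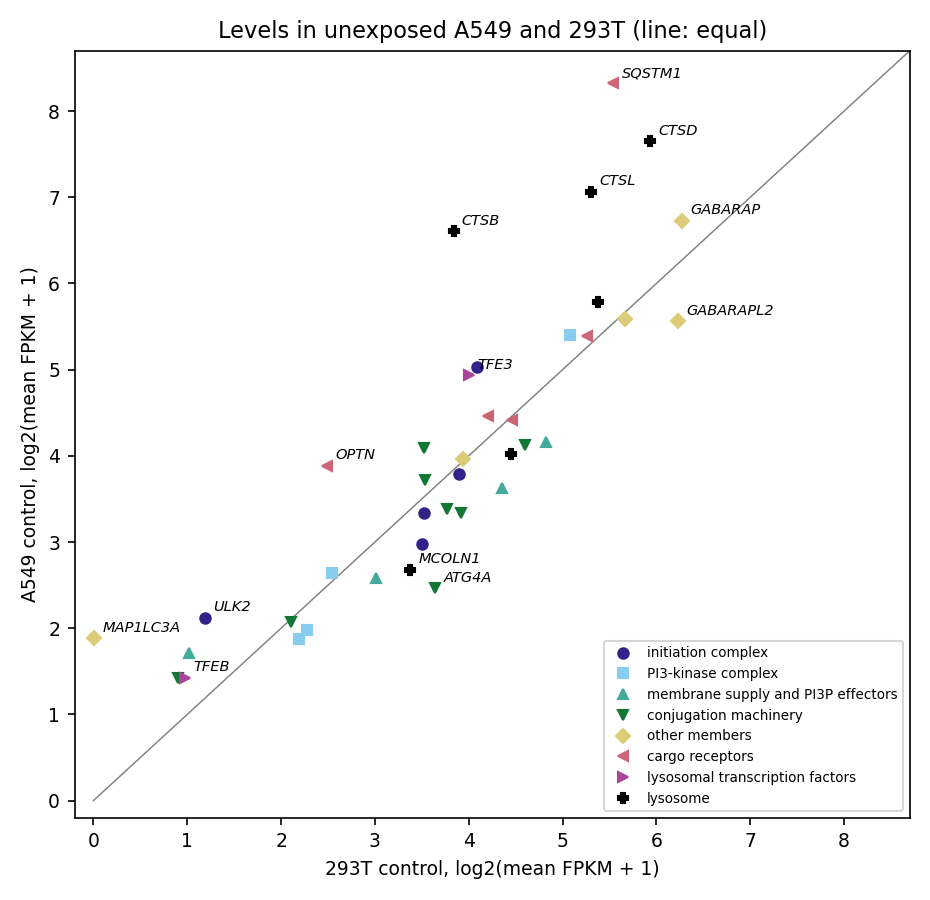
Mean FPKM of the 39 genes in A549 controls against 293T controls (3 libraries each), on log2(FPKM + 1) axes, with symbols by role and a line of equal level. SQSTM1 and the cathepsins lie far above the line, and MAP1LC3A lies at the left edge because it was near 0 in 293T.

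Other genes of the pathway were described from 6 further lists, to be read against the shares and medians of all genes given above. The calls in these lists were not followed through the alternatives. Of 15 other core autophagy genes tested, 0 were higher and 4 lower in A549 (median log2 change 0.00), and 1 was higher and 4 lower in 293T (0.02), and the same 4 genes were lower in both lines. They included ATG2B, the paralog of ATG2A (log2 change -0.28 in A549, adjusted p = 7.57e-04, and -0.31 in 293T, adjusted p = 5.65e-04), and ATG16L2, a paralog of ATG16L1 (-0.41 in A549, adjusted p = 3.90e-04, and -0.22 in 293T, adjusted p = 0.0166). ATG16L2 lay near the filter, with means of 1.06 and then 0.558 FPKM in A549 and 0.652 and then 0.415 FPKM in 293T. TMEM41B, a scramblase of the endoplasmic reticulum, was higher in 293T (log2 change 0.40, adjusted p = 0.0122). Of 15 other cargo receptors and partners, 3 were higher and 1 lower in A549 (median log2 change -0.06) and 3 were higher and 3 lower in 293T (-0.00). The largest change there was of BAG3, a co-chaperone that hands misfolded proteins to autophagy together with SQSTM1, which was 4.98-fold higher in A549 (55.9 ± 0.819 to 278 ± 68.5 FPKM) and 3.13-fold higher in 293T (22.1 ± 0.618 to 69.3 ± 17.5 FPKM). NCOA4, the ferritin receptor, was higher in 293T (log2 change 0.16, adjusted p = 0.00845), and its response was smaller in A549 (difference -0.23, adjusted p = 0.0207).

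Among 14 genes of the fusion machinery, 2 were higher and 4 lower in each line (median log2 change 0.02 in A549 and -0.03 in 293T). The SNARE gene STX17 was lower in both (log2 change -0.18, adjusted p = 0.0112 in A549, and -0.21, adjusted p = 0.00688 in 293T), as was TECPR1 (-0.31, adjusted p = 5.18e-04, and -0.20, adjusted p = 0.00863), and VPS41 of the HOPS tether was higher in both (0.14, adjusted p = 0.0300, and 0.30, adjusted p = 5.68e-04). Of 17 subunits of the V-ATPase, the proton pump that acidifies the lysosome, 3 were higher and 2 lower in A549 (median log2 change 0.03) and 5 higher and 3 lower in 293T (0.01). ATP6V1D and ATP6V0B were higher in both, by 0.20 and 0.15 in A549 (adjusted p = 6.34e-04 and 0.00209) and 0.15 and 0.13 in 293T (adjusted p = 0.00554 and 0.00482) on the log2 scale. Of 35 other lysosomal proteins, 3 were higher and 4 lower in A549 (median log2 change -0.01) and 8 higher and 9 lower in 293T (-0.04). SGSH, a heparan sulfate sulfatase, was 1.67-fold lower in A549 (log2 change -0.62, adjusted p = 6.63e-06) and 1.40-fold lower in 293T (-0.41, adjusted p = 1.82e-04). NEU1, the lysosomal sialidase, was 1.49-fold higher in 293T (16.8 ± 0.720 to 25.0 ± 2.41 FPKM, adjusted p = 1.42e-04) and at 6.96 ± 0.479 and 6.88 ± 0.353 FPKM in A549, and the responses differed by -0.56 (adjusted p = 0.00339).

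Of 20 upstream regulators tested, 2 were higher and 9 lower in A549 (median log2 change -0.09), and 2 were higher and 6 lower in 293T (0.05), with 5 lower in both lines. RPTOR, the scaffold of the growth kinase complex mTORC1 that restrains autophagy, was lower in A549 (log2 change -0.48, adjusted p = 4.91e-06) and in 293T (-0.28, adjusted p = 2.93e-04). STK11 (LKB1), the kinase that activates AMPK, was lower in both as well (-0.26, adjusted p = 0.00235, and -0.32, adjusted p = 7.88e-04). MITF, a relative of TFEB, was higher in A549 (log2 change 0.26, adjusted p = 0.0344). TSC1, whose complex inhibits mTORC1, was higher in 293T (log2 change 0.26, adjusted p = 4.98e-04), with a smaller response in A549 (difference -0.23, adjusted p = 0.0198). TSC2, of the same complex, was lower in A549 (log2 change -0.23, adjusted p = 3.10e-04).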

How the data were processed

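RNA of exposed and control 293T and A549 cells was sequenced after oligo(dT) selection, per the labels' protocols. The authors used fastp, HISAT2 and HTSeq with GRCh38, per the submitters' processing notes, and deposited FPKM values; the sources used here give neither versions nor whether counting used strand, and overlapping genes may share reads. Whole counts were recovered from the FPKM for 100.0% of 26348 genes (tolerance 0.01 counts), with totals whose highest was 1.046 times the lowest. They served for depth and for 1 alternative.

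Genes had to reach 0.5 FPKM in 3 or more libraries; 13811 did and 12537 did not. On log2(FPKM + 1), limma 3.58.1 (R 4.3.3) fitted the 12 libraries together with a mean for each group, a variance trend and 8 residual degrees of freedom. Tests were two-sided, with Benjamini-Hochberg adjustment over the 13811 genes and a threshold of 0.05; a fold change on this scale understates that of low genes, and ratios given as fold are of mean FPKM. The fit was also run on simulated counts with changes balanced in both directions, so that run does not bear on the choice of scaling. Tables were handled in pandas 2.3.3 and numpy 2.4.6 (Python 3.11.15).

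The members and the further lists were chosen with earlier results of these data known. Values by library are given for members past the threshold with a log2 change of at least 0.5 in size, for the member with the smallest adjusted p in each role and contrast, and for those whose response differed between the lines; of the further lists, genes are named from those with the smallest adjusted p each way. ULK1 was added to these after its values were seen. Alternatives were another pseudocount, filters, scalings, a fit without the trend, each line alone, a replicate block, limma-voom on recovered counts, and leaving out libraries. The summed result of 1 group of genes is not reported here.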

Additional observations from a re-analysis of the deposited data

Results flagged for a closer look

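For 2 genes the response to exposure differed between the lines by the interaction test of limma. SQSTM1 responded less in A549 by 0.38 on the log2 scale (difference -0.38, adjusted p = 0.00116), with all 3 exposed 293T libraries above their controls and 2 of 3 exposed A549 libraries above theirs. ATG101 responded less in A549 as well (difference -0.17, adjusted p = 0.0234), with all exposed libraries above all controls in both lines. Groups of 3 libraries were too small for a test of single outlying libraries.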

How the results depend on the processing

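No direction was reversed among called members under the alternatives run. Of the called members, 5 of 15 in A549 (ATG2A, WIPI1, ATG5, MAP1LC3B and TFEB) and 10 of 19 in 293T (ULK1, ATG13, ATG101, ATG9A, ATG2A, ATG5, ATG16L1, MAP1LC3B, SQSTM1 and MCOLN1) were kept in every alternative. The number higher in A549 (5) was 9 with median centring, 3 with rescaling without mitochondrially encoded genes, 12 with limma-voom, and 3 to 5 when 1 library was left out. The number lower in A549 (10) was 6 with quantile normalization, 4 with median centring and 4 with limma-voom. The number lower in 293T (10) was 6 without a filter, 6 with quantile normalization, 5 with median centring, 6 with limma-voom, and 6 to 10 when 1 library was left out. For the difference between the lines, the number higher in A549 (0) was 1 with a mean FPKM of at least 1, 1 with median centring, 1 with limma-voom and 0 to 1 when 1 library was left out, the gene being TAX1BP1 or CTSL. The number lower (2) was 4 with quantile normalization, 1 with median centring, 1 with limma-voom and 1 to 3 when 1 library was left out. The cause of these shifts was not tested. The replicate number as a block gave 6 higher and 10 lower in A549, 9 and 9 in 293T, and 0 and 3 for the lines. Same-numbered exposed and control libraries did not deviate together (correlations of -0.141 to 0). With 3 libraries a group, this cannot exclude a shared day or batch. Leaving out replicate 3 of both exposed groups gave 5 and 9 in A549 and 9 and 7 in 293T. Scaling moved the median change with exposure over all genes by at most 0.06 on the log2 scale in either line. Between the controls, the split of 19 higher and 16 lower members in A549 also moved. It was 25 and 11 with limma-voom, 21 and 13 with quantile normalization, and 20 and 13 with median centring. Depth limits TFEB, WIPI1 and ATG10 most, which lay near 1 FPKM in 293T, and MAP1LC3A, which had at most 2 counts there.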
